A study of Mus musculus with 13 samples.

Results

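The genes described here are the variable (V), diversity (D) and joining (J) segments of the T cell receptor beta locus, chosen as every row of the count table whose symbol starts with Trbv, Trbd or Trbj and a number. They were 39 of 26720 genes: 24 V segments, 2 D segments and 13 J segments. The constant gene Trbc2 served only as a denominator. RNA was sequenced from CD4+YFP+ spleen cells of mice 4 to 5 weeks old, in which YFP reports Foxp3, the transcription factor of regulatory T (Treg) cells. The control group held 7 libraries labelled Foxp3YFPCre. The deleted group held 6 libraries labelled Foxp3YFPCre/+Stk3∆/∆Stk4∆/∆, in which the Foxp3-driven Cre removes Stk3 and Stk4, the Hippo pathway kinases MST2 and MST1. Both groups carried the Foxp3YFPCre allele. It is marked heterozygous in the deleted group and has no stated zygosity in the control group. No label ties a library to an animal. The p-values therefore measure the spread between libraries only, which may be technical.

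A T cell builds its beta chain gene in the thymus by joining one D to one J segment and then one V segment to that DJ unit, each picked from arrays along the chromosome. The rearranged segments are transcribed together with Trbc1 or Trbc2, and the V segment supplies most of the variable domain, while the junction over D forms the part that contacts antigen most closely. Each T cell thus carries one productive beta rearrangement in most cases, so that the V counts of a population describe which receptors its cells use. Treg cells depend on receptor signals for their selection and for their effector state.

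The locus covers chromosome 6 from 40891296 to 41558371 in GRCm38, a span of 667 kb. All 39 segments matched the RefSeq gene table of that build. The table types 22 of the 24 V genes as V segments and Trbv11 and Trbv18 as V pseudogenes. It lists 51 segments in all. The 12 others, among them Trbv29, had no row under their symbol among the genes of the count table. The V shares below therefore leave Trbv29 out. Trbv1 lies at the start of the locus (40891296 to 40891885), apart from the main V array, with trypsinogen genes in between. Trbd1 and Trbj1-1 to Trbj1-7 lie before Trbc1, and Trbd2 with the second J cluster lies before Trbc2. Trbv31 (41557693 to 41558371) lies beyond Trbc2 and is known to rearrange by inversion.

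Total counts ranged from 2671660 to 4569655 in deleted and from 3705511 to 8323919 in control libraries. Summed V counts, on which usage rests, ranged from 998 in deleted replicate 7 to 8054 in control replicate 5. Sensory receptor genes (olfactory and vomeronasal), not known to serve a T cell, took 0.761 to 1.89% of counts in deleted and 0.371 to 1.07% in control libraries. The 6 Treg and T cell markers (Foxp3, Cd4, Cd3e, Il2ra, Ikzf2 and Trac) had counts in both groups, with Foxp3 at 44.0 ± 16.2 CPM in deleted (SD, n = 6) and 54.1 ± 12.1 CPM in control libraries (SD, n = 7). Foxp3 did not pass the test (log2 difference -0.30, SE 0.24), but 4 of the 6 markers fell, where 8.52% of all genes tested were lower. The median over the list was -1.01, against 0.06 for all genes. With the log2 share of sensory receptor genes as a covariate, none of those 4 passed (edgeR adjusted p from 0.733 to 0.998). Beside Cd3e and Trac, given further on, Cd4 fell by 1.01 (SE 0.32, edgeR adjusted p = 0.0419) and Ikzf2, a Treg transcription factor, by 0.89 (SE 0.28, edgeR adjusted p = 0.0396). Il2ra was at -1.01 (SE 0.34) and missed the threshold. Summed over the list they came to 759 to 1595 CPM in deleted and 1118 to 3933 CPM in control libraries. CPM are depth-normalised counts, scaled by edgeR's TMM factors. Summed CPM of the 6 B cell markers were 129 to 198 in deleted and 354 to 1089 in control libraries, with Ighm and Cd79b lower, Ms4a1 higher and no marker at 0 in a group. The 2 CD8 T cell markers, Cd8a and Cd8b1, summed to 25.8 to 54.9 CPM and 40.5 to 59.9999 CPM, and neither passed the test. Nor did any of the 3 NK and innate-like T cell markers (57.1 to 98.7 CPM and 33.4 to 118 CPM), the 5 myeloid markers (99.0 to 148 CPM in deleted and 80.2 to 148 CPM in control) or the 2 erythroid markers (4.50 to 10.9 CPM and 0.682 to 10.7 CPM). Of 4 gamma-delta T cell markers, Trdc and Sox13 were in the table. Trdc, the constant gene of the delta chain, rose from 20.4 ± 12.8 CPM (SD, n = 7) to 62.5 ± 42.8 CPM (SD, n = 6), with an edgeR adjusted p of 0.0206. The part of these markers and cell types in the results below was not tested.

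Mean CPM of beta chain transcripts was lower in the deleted libraries for summed V, D and J segments and for Trbc2, with overlapping ranges. Of the 12 J segments tested, 1 passed the test. Summed V segments were at 364 ± 56.1 CPM in deleted (SD, n = 6) and 762 ± 380 CPM in control libraries (SD, n = 7). Of the 36 segments that passed the low-count filter, 11 fell, 0 rose and 25 missed the threshold (edgeR quasi-likelihood F test, Benjamini-Hochberg over all 24068 genes tested, threshold 0.05). Over all genes tested, 8.52% were lower, 1.66% higher and 10.2% called in either direction. The median log2 fold change of the 36 segments was -0.96, against 0.06 for all genes tested, and 35 of the 36 were below 0. In bulk samples, fewer cells that carry beta transcripts, less beta RNA per cell and differences between libraries cannot be told apart. With the log2 receptor share of a library as a covariate, 0 of 36 segments passed the test, where 0.233% of all genes were lower. Their median was then -0.07.

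Summed V segments in the deleted group ran from 285 CPM in replicate 7 to 446 CPM in replicate 4, with a median of 351 CPM. In the control group they ran from 339 CPM in replicate 2 to 1439 CPM in replicate 5, with a median of 634 CPM. The groups overlapped: all 6 deleted libraries lay below the control median, but only deleted replicate 7 lay below the lowest control library. Control replicates 4 and 5, the highest in V level, had the largest total counts and the smallest receptor shares, 0.472% and 0.371%. Control replicate 2, the lowest, had the largest receptor share of the control group, 1.07%.

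Trbc2 had the same order of groups. It ran from 555 to 1006 CPM in deleted and from 704 to 2857 CPM in control libraries. The log2 fold change of Trbc2 was -1.08 (SE 0.34, adjusted p = 0.0428 by edgeR). V counts per 100 Trbc2 counts were therefore nearly level, at 48.1 ± 3.49 in deleted (SD, n = 6) and 46.7 ± 2.84 in control libraries (SD, n = 7), with ranges of 44.3 to 52.2 and 43.1 to 50.4. The difference was smaller than the spread within either group. V transcripts and the constant gene they are spliced to were thus lower together on the library scale.

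**Figure D1:**
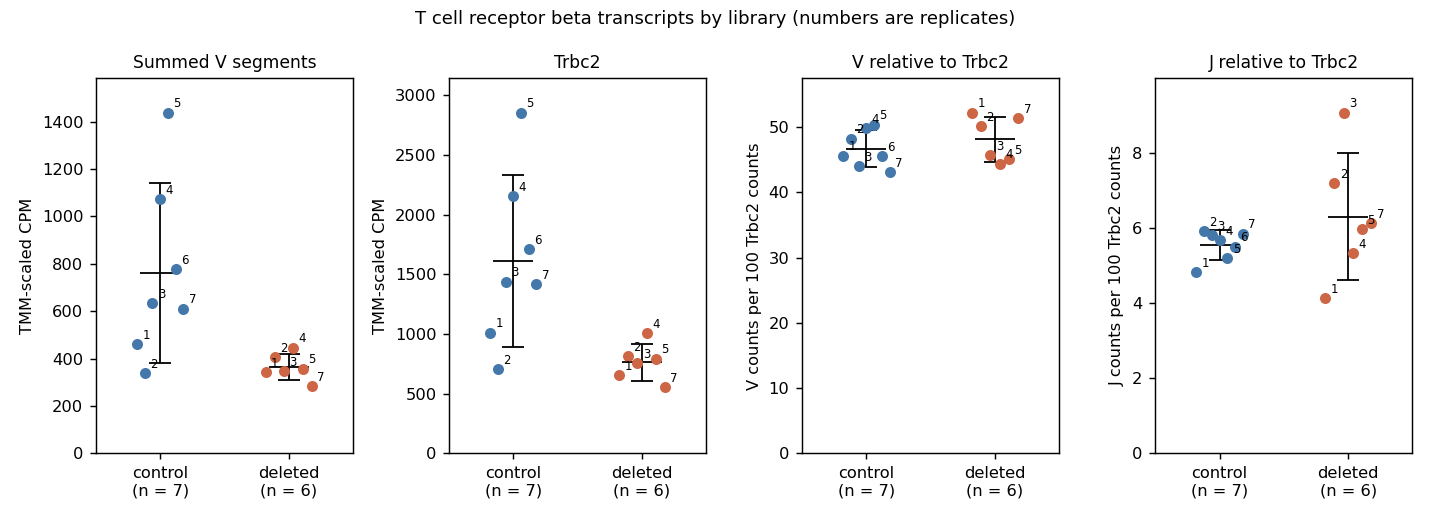
Each point is a library, numbered by replicate, with the group mean and SD as bars; the panels give summed V segments and Trbc2 in TMM-scaled CPM, and V and J counts per 100 Trbc2 counts. The control libraries spread from 339 to 1439 CPM in summed V, whereas V per 100 Trbc2 stays between 43.1 and 52.2 in all 13 libraries.

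The same comparison was made for each V segment. Of 22 V segments tested, 9 fell and 13 did not pass the test. Trbv13-2 (41121396 to 41121832), the segment with the largest share of V counts, ran from 22.3 to 51.0 CPM in deleted libraries, with a median of 30.3 CPM. In control libraries it ran from 40.2 to 160 CPM, with a median of 77.0 CPM. In the deleted group 4 of 6 libraries lay below the lowest control library. Its log2 fold change was -1.46 (SE 0.29, adjusted p = 0.00371 by edgeR), the smallest p among the segments.

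Its neighbours Trbv13-1 (41116036 to 41116468) and Trbv13-3 (41130147 to 41130585) belong to the same family of similar sequence, so reads may have been split between the 3 genes. Trbv13-1 ran from 10.9 to 23.9 CPM in deleted (median 15.8) and from 19.5 to 68.4 CPM in control libraries (median 44.8), or -1.39 in log2 terms (SE 0.28). Trbv13-3 ran from 11.1 to 25.95 CPM (median 17.9996) and from 17.6 to 67.4 CPM (median 37.4), with -1.20 (SE 0.28). Both fell, with adjusted p of 0.00434 and 0.0101 by edgeR, and in both the groups overlapped.

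Trbv1, the segment at the start of the locus, ran from 20.8 to 35.1 CPM in deleted libraries (median 27.9). It ran from 31.2 to 104 CPM in control libraries (median 68.8), so that 5 of 6 deleted libraries lay below the lowest control library. It fell by 1.20 on the log2 scale (SE 0.27, adjusted p = 0.00732 by edgeR). Trbv16 (41151791 to 41152230) ran from 15.7 to 37.7 CPM (median 22.4) against 26.6 to 141 CPM (median 55.0) and fell by 1.44 (SE 0.32). For Trbv16, 4 of 6 deleted libraries lay below all control libraries.

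Trbv5 (41062359 to 41062803) and Trbv12-2 (41118864 to 41119364), both among the 9 most used V segments, also fell. Trbv5 ran from 13.02 to 41.3 CPM (median 33.1) in deleted and from 28.3 to 127 CPM (median 52.0) in the controls, which gave a log2 difference of -1.19 (SE 0.32). Trbv12-2 ran from 18.8 to 33.8 CPM (median 20.2) and from 19.5 to 105 CPM (median 51.2), with -1.05 (SE 0.30). In each, 2 of 6 deleted libraries lay below the control range.

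Of the less used segments, Trbv15 (41141211 to 41141658) and Trbv26 (41227525 to 41227913) fell. Trbv15 ran from 6.03 to 21.5 CPM (median 15.7) in deleted and from 12.4 to 70.6 CPM (median 35.2) in the controls, which gave a log2 difference of -1.37 (SE 0.33). Trbv26 ran from 1.43 to 10.2 CPM (median 5.11) and from 8.37 to 32.5 CPM (median 16.1). At -1.62 (SE 0.42, adjusted p = 0.0171 by edgeR) it had the lowest value of the segments tested, with 4 of 6 deleted libraries below the control range.

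Among the most used segments, Trbv3 and Trbv31 did not pass the test. Trbv3 (41048394 to 41048824) ran from 19.98 to 50.6 CPM (median 33.0) in deleted and from 23.1 to 125 CPM (median 50.9) in the controls, and its log2 difference was -0.80 (SE 0.31, edgeR adjusted p = 0.101). Trbv31 ran from 12.01 to 39.4 CPM (median 25.7) and from 8.81 to 72.7 CPM (median 27.2). Its medians were close. The log2 difference was -0.27 (SE 0.33, edgeR adjusted p = 0.638), with a 95% interval of -0.94 to 0.40. The one tested segment above 0 was Trbv21, at 0.65 (SE 0.64), with 140 counts in all libraries together.

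For no member did the 2 groups separate fully on this scale, where 1.44% of all genes tested had every deleted library below every control library and 0.673% the reverse. The count of 11 segments depended on single libraries. It was 18 without control replicate 2, where 3245 of 23841 genes tested were lower. Without control replicate 4 it was 7 (1141 of 23815 genes lower) and without control replicate 5 it was 6 (1116 of 23857). Without deleted replicate 5 it was 7 (1034 of 24296). The count over all genes thus moved in the same direction, from 2050 of 24068 with all libraries. With the log2 receptor share as a covariate, 0 of 36 segments passed the test, where 0.233% of all genes were lower. The median of the segments was then -0.07, against -0.01 for all genes.

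Among libraries whose receptor share lay between 0.7 and 1.4% (5 deleted and 4 control), a range chosen with results of these data known, 0 of 35 segments passed the test, where 0.418% of all genes were lower. There the median of the segments was -0.39 and that of all genes 0.00136. Trbv13-2 was at -0.75 (SE 0.24, adjusted p = 0.214) and Trbv13-1 at -0.81 (SE 0.28, adjusted p = 0.275) by edgeR. TMM factors taken from genes of at least 50 mean CPM moved the median of all genes to 0.39. In that fit 4 of 36 segments fell (Trbv1, Trbv13-1, Trbv13-2 and Trbv16), where 2.87% of all genes were lower and 4.28% higher, and the median of the segments was -0.54.

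V usage, the share of each segment in the summed V counts of a library, was then compared. It divides out how much beta RNA a library holds. Of the 24 V segments, 9 averaged at least 5% over the 13 libraries and together held 66.6% of V counts: Trbv13-2, Trbv3, Trbv5, Trbv1, Trbv16, Trbv12-2, Trbv31, Trbv13-3 and Trbv13-1. Per kb of annotated span, Trbv13-2 also came first over the 13 libraries, at a mean share of 11.6%, followed by Trbv3 (9.39%), Trbv5 (9.05%), Trbv16 (8.21%) and Trbv1 (6.62%). By group the first place differed: Trbv13-2 led in control libraries (13.1% per kb, with Trbv3 in place 4 at 8.52%), and Trbv3 led in deleted libraries (10.4%, with Trbv13-2 next at 9.94%). Trbv31 came to 4.01%, since its span of 679 bp is longer than that of most V segments. Another 6 segments, Trbv11, Trbv18, Trbv21, Trbv23, Trbv24 and Trbv30, averaged under 1% of V counts.

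Those 6 segments were close to the level of sensory receptor genes. The 1148 receptor genes with a span of at most 1200 bp had a median of 4.41 CPM per kb in deleted and 2.79 CPM per kb in control libraries, and a 95th percentile of 20.8 and 14.8 CPM per kb. In control libraries 18 of 24 V segments lay above that percentile, and the 6 named above did not. In deleted libraries 15 lay above it. Trbv14, Trbv17 and Trbv26, at 18.9, 20.2 and 14.4 CPM per kb, were then below it as well, against 31.9, 42.0 and 44.6 CPM per kb in control libraries.

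**Figure D2:**
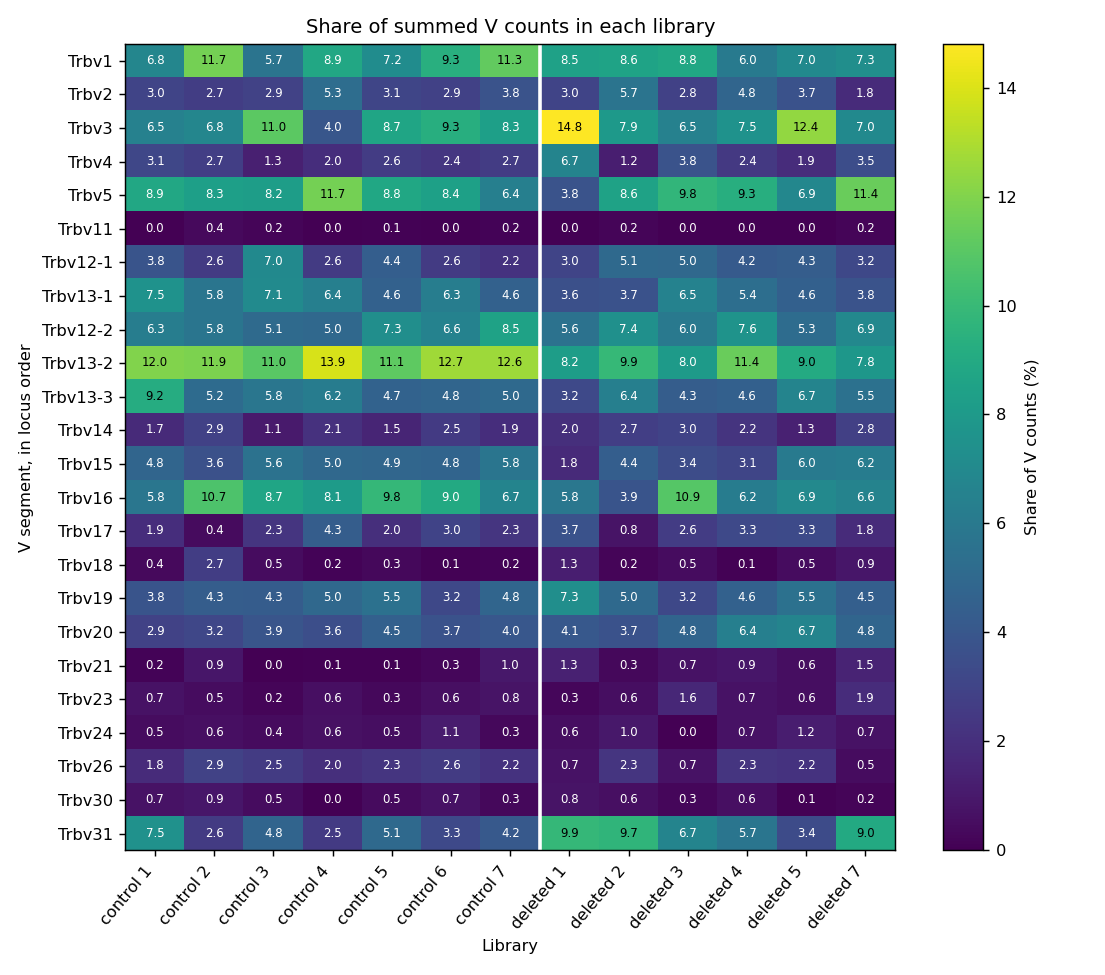
Rows are the 24 V segments in locus order, columns the 13 libraries, and colour and printed value the share of summed V counts in percent. Trbv13-2 is the top segment in 6 of 7 control libraries, whereas the deleted libraries have Trbv3, Trbv13-2, Trbv16 or Trbv5 on top.

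Trbv13-2 was the most used V segment in 6 of 7 control libraries, with Trbv3 first in control replicate 3. In the deleted group Trbv13-2 came first in 2 libraries, Trbv3 in 2, Trbv16 in 1 and Trbv5 in 1. The share of Trbv13-2 ran from 7.82 to 11.4% in deleted (median 8.65%) and from 11.01 to 13.9% in control libraries (median 11.98%). Deleted replicate 4 alone reached into the control range, and the other 5 deleted libraries lay below it. Together the 3 Trbv13 segments held 15.1 to 21.3% of V counts in deleted and 20.4 to 28.7% in control libraries, with 5 of 6 deleted libraries below the control range. The Trbv12 pair showed no such order, at 8.60 to 12.5% and 7.57 to 12.1%.

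The share of Trbv31 averaged 7.39 ± 2.58% in deleted (SD, n = 6) and 4.27 ± 1.73% in control libraries (SD, n = 7), the largest difference of mean shares among the V segments. It ran from 3.37 to 9.87% (median 7.85%) and from 2.53 to 7.48% (median 4.15%). In the deleted group 3 of 6 libraries lay above every control library, while deleted replicate 5, at 3.37%, was below the control median. The share of Trbv20 (41188273 to 41188977) ran from 3.75 to 6.66% in deleted and from 2.93 to 4.54% in control libraries, with 4 of 6 deleted libraries above the control range. Trbv20 was chosen after its values were seen.

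With all libraries, no single segment passed the edgeR test of usage across all genes. The summed shares of the Trbv13 and Trbv12 segments and the tally of top segments were not tested. With summed V counts as the library scale, 0 of 36 segments passed in edgeR, where 22.6% of all genes were higher, 0.328% lower and 23% called in either direction, and 1 of 36 had an unadjusted p under 0.05. That segment was Trbv31, at a log2 difference of 0.79 (SE 0.34, unadjusted p = 0.0293, adjusted p = 0.0778 by edgeR), with a 95% interval of 0.09 to 1.49. DESeq2 on the same scale called Trbv31 alone of the segments (0.79, adjusted p = 0.0498), where 8694 of 24068 genes were higher. In edgeR Trbv31 was also called without control replicate 1 (0.98, adjusted p = 0.0397), where 7230 of 23657 genes were higher. Trbv21 was called without control replicate 2 (1.81, adjusted p = 0.0432 by edgeR), where 14869 of 23841 genes were higher. For Trbv13-2 the value was -0.42 (SE 0.21, adjusted p = 0.118), with a 95% interval of -0.86 to 0.02.

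The remaining 7 of the most used segments lay between -0.39 (Trbv13-1, SE 0.29) and 0.26 (Trbv3, SE 0.29) on the summed V scale. The median SE over the 22 V segments tested was 0.34, and differences in usage of that size could not be told from the spread between these libraries. The median of the 36 segments was 0.07 on this scale, against 0.84 for all genes tested. V segments divided by their own sum lie near 0 by construction, and the value for all genes gives the shift of the scale. The shares of all genes called on this scale carry that shift too. With the Trbc2 count as the scale, likewise 0 of 36 segments passed, where 32.3% of all genes were higher and 0.303% lower. Trbv31 was then at 0.87 (SE 0.35, adjusted p = 0.0563 by edgeR).

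**Figure D3:**
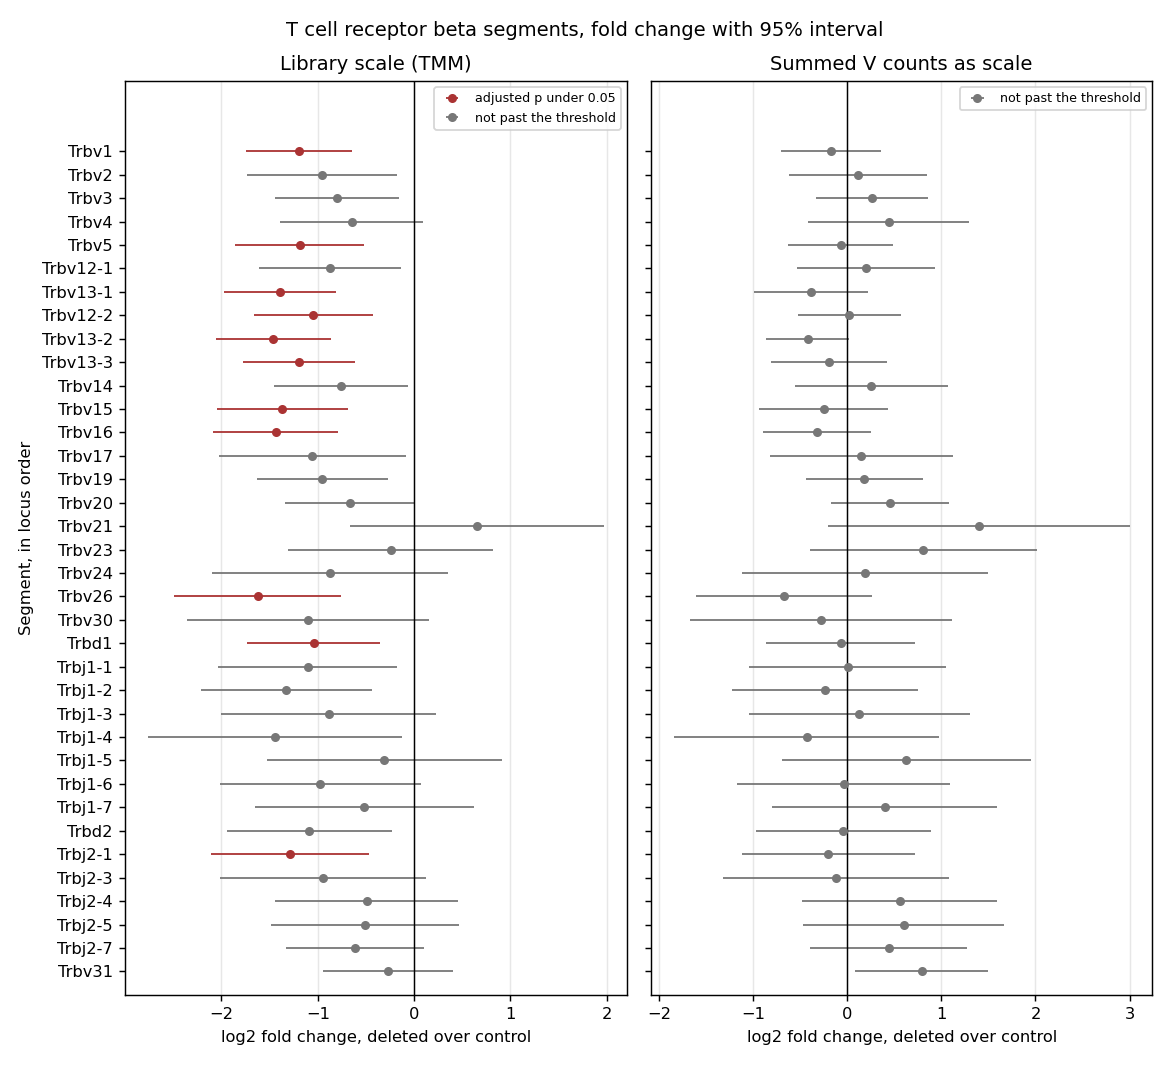
Points are edgeR log2 fold changes of deleted over control libraries with 95% intervals, for the 36 segments tested in locus order, on the TMM library scale (left) and with summed V counts as the scale (right). On the left 35 of 36 points lie below 0 and 11 are past the threshold. On the right none is past it, and the segments centre on 0.07, near 0 by construction of the scale.

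Usage differed between libraries of the same group by more than counting alone gives. Over the 9 most used V segments, the pooled SD within groups was 1.80 to 4.71 times the binomial counting error, with a median of 3.08 times. The 95% Wilson intervals of single shares, which cover counting error only, were 0.781 to 3.95 percentage points wide for these segments. The widest ratio belonged to Trbv3, which took 14.8% of V counts in deleted replicate 1 (210 of 1419 counts, Wilson interval 13.05 to 16.7%) and 3.95% in control replicate 4 (247 of 6248 counts, 3.50 to 4.47%). In control replicate 3 it took 11.04%, so high Trbv3 shares were found in both groups.

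Any pair of libraries differed in 9.58 to 29.9% of its V usage, the share of V counts that would have to move to another segment to make a pair alike. The median was 14.05% for the 21 pairs of control libraries, 18.5% for the 15 pairs of deleted libraries and 17.1% for the 42 pairs between groups. After every library was thinned to 998 V counts by a single random draw, the medians were 15.8%, 17.3% and 17.5%. At equal depth the pairs between groups and the pairs of deleted libraries had close medians. For V usage, 0 of the 24 segments had groups that did not overlap. Per V count, 4.17% of all genes had every deleted library above every control library and 0.224% the reverse. These shares carry the shift of that scale.

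The effective number of V segments, the exponential of the Shannon entropy of the 22 V segment shares, says how evenly a library uses them. It was 17.1 ± 0.510 in deleted (SD, n = 6) and 16.6 ± 0.357 in control libraries (SD, n = 7), with ranges of 16.3 to 17.9 and 16.1 to 16.9. In the deleted group 5 of 6 libraries lay above every control library. After thinning to a common V total, by a single random draw per library, the values were 16.9 ± 0.506 and 16.4 ± 0.618. Then 2 of 6 deleted libraries lay above the control range. Control replicate 6, the highest control library before and after, went from 16.9 to 17.3 in that draw. How far the draw itself made the change from 5 to 2 libraries was not tested. The 3 most used segments held 28.2 to 33.1% of V counts in deleted and 29.7 to 34.5% in control libraries.

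The D segments are 12 and 14 bp long in the annotation and are mostly trimmed when they are joined. Trbd1 (41533201 to 41533212), which can join either J cluster, ran from 4.28 to 12.1 CPM (median 7.10) in deleted and from 6.90 to 23.7 CPM (median 15.96) in control libraries. It fell by 1.04 on the log2 scale (SE 0.34, adjusted p = 0.048 by edgeR), and 3 of 6 deleted libraries lay below the control range. Trbd2, which joins the second cluster, was at -1.09 (SE 0.42) and missed the threshold, with an edgeR adjusted p of 0.0949. D counts per 100 Trbc2 counts were 1.64 ± 0.333 in deleted (SD, n = 6) and 1.67 ± 0.221 in control libraries (SD, n = 7). Counts per gene do not show whether a read on a D or J segment came from a rearranged or an unrearranged transcript.

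Of 13 J segments, 12 passed the low-count filter, 1 fell and 11 missed the threshold, and all 12 were below 0 with a median of -0.92. The share of J segments called, 8.33%, was close to the 8.52% of all genes that were lower. Trbj2-1 (41542754 to 41542803), the J segment of highest mean count, ran from 3.14 to 8.86 CPM (median 5.85) in deleted and from 3.804 to 27.5 CPM (median 15.5) in control libraries. It fell by 1.29 (SE 0.40, adjusted p = 0.0393 by edgeR), with 2 of 6 deleted libraries below the control range. Trbj2-2, with 132 counts in all, did not pass the filter. Next by p was Trbj1-2, at -1.33 (SE 0.43), which missed the threshold with an edgeR adjusted p of 0.0501.

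J counts per 100 Trbc2 counts were 6.30 ± 1.69 in deleted (SD, n = 6) and 5.54 ± 0.400 in control libraries (SD, n = 7). The deleted group ran from 4.12 in replicate 1 to 9.07 in replicate 3, on both sides of the control range of 4.82 to 5.92. Summed J counts were 112 to 279 in deleted and 175 to 831 in control libraries, so the Wilson intervals of single J shares were 1.61 to 15.1 percentage points wide.

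Over the 13 libraries together, Trbj2-1 and Trbj2-7 were the most used J segments, at mean shares of 14.5% and 14.02% of J counts, followed by Trbj1-2 (11.6%) and Trbj1-1 (11.3%). The order differed by group. In control libraries it was Trbj2-1 (15.8%), Trbj1-2 (13.5%) and Trbj2-7, and in deleted libraries Trbj2-7 came first and Trbj2-1 (12.9%) next. Trbj2-7 averaged 15.7 ± 2.55% in deleted (SD, n = 6) and 12.6 ± 2.34% in control libraries (SD, n = 7), with overlapping ranges. The first J cluster held 44.7 ± 9.01% of J counts in deleted (SD, n = 6) and 50.9 ± 8.55% in control libraries (SD, n = 7). It ran from 33.0 to 54.9% and from 38.9 to 60.1%. All 6 deleted libraries lay below the control median of 54.9%, but 4 of them lay within the control range. On the summed V scale the 12 J segments tested lay between -0.43 and 0.63, and 0 passed the test.

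**Figure D4:**
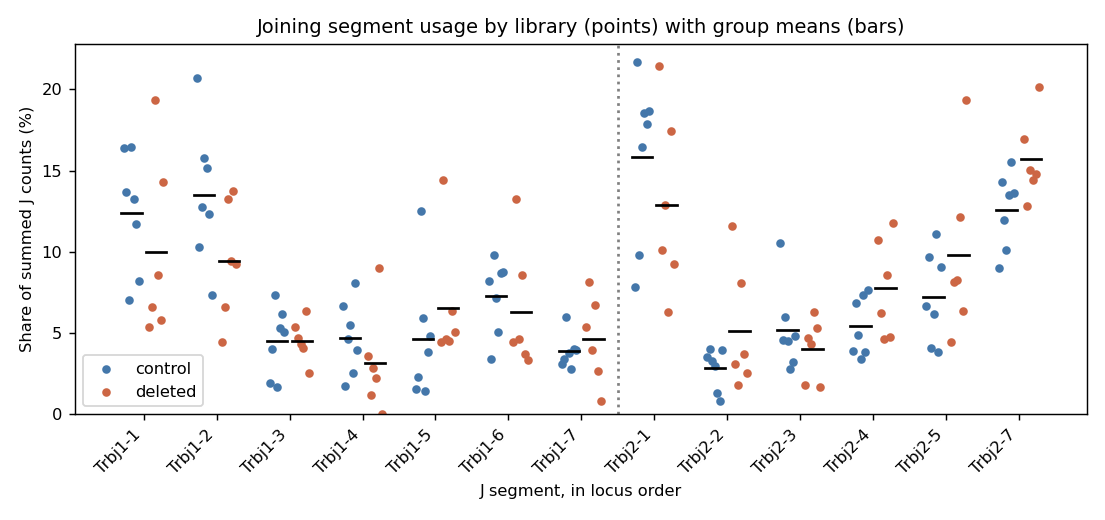
Points are libraries and black bars group means; the vertical axis is the share of summed J counts in percent for the 13 J segments in locus order, with a dotted line between the clusters. The highest group mean is that of Trbj2-1 in control (15.8%) and of Trbj2-7 in deleted libraries (15.7%), and the groups overlap in all 13 segments.

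Most genes listed for the T cell receptor complex were lower as well. Of the 9, 7 fell, 0 rose and 2 missed the threshold, where 8.52% of all genes were lower, and the list's median was -1.08. Of those 2, Cd247, the CD3 zeta chain, was at -0.80 (SE 0.27). Ptcra, which pairs with the beta chain in immature thymocytes, was at 0.86 (SE 0.52), from 6.72 ± 5.69 CPM in deleted (SD, n = 6) and 3.68 ± 1.55 CPM in control libraries (SD, n = 7). Cd3e, which encodes the CD3 epsilon chain, was at 168 ± 60.5 CPM in deleted (SD, n = 6) and 428 ± 182 CPM in control libraries (SD, n = 7), and its log2 difference was -1.35 (SE 0.31). Cd3g was at -1.26 (SE 0.33) and Trbc1 at -1.08 (SE 0.32), with adjusted p of 0.0089, 0.0195 and 0.0307 by edgeR. Trbc1 and Trbc2 are nearly identical, so their separate values are uncertain. Trac, the constant gene of the alpha chain, fell by 1.03 (SE 0.31). Of the 9, 0 passed once receptor share was in the model.

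Of 13 genes of V(D)J recombination and end joining, 1 rose and 12 missed the threshold, and the list's median was -0.10. Over all genes tested, 1.66% were higher and 10.2% were called in either direction. A list of 13 genes with 1 call is too small to set against either share. Rag2, a subunit of the recombinase that cuts the segments in developing lymphocytes, rose from 17.7 ± 6.39 CPM (SD, n = 7) to 31.6 ± 10.5 CPM (SD, n = 6), by 0.84 on the log2 scale (SE 0.26, adjusted p = 0.0378 by edgeR). With the receptor share as a covariate its adjusted p was 0.53. Its partner Rag1 was at 0.16 (SE 0.26), and Dntt, which adds bases at the junctions, at -0.10 (SE 0.24). Hmgb1 and Polm came next by p, at -0.66 (SE 0.24) and -0.61 (SE 0.24).

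Of 8 factors known to bind the beta enhancer or V promoters, only Gata3 fell, by 0.89 (SE 0.28, adjusted p = 0.0431 by edgeR), and the list's median was -0.25. That is 1 of 8 genes, where 8.52% of all genes were lower, and with receptor share in the model Gata3 was at -0.03 (edgeR adjusted p = 0.989). Ets1 and Runx1 followed by p, at -0.58 (SE 0.32) and -0.36 (SE 0.20). The 7 trypsinogen genes inside the locus, which serve the pancreas, summed to 11.1 to 21.5 CPM in deleted and 6.25 to 21.2 CPM in control libraries. Of these, 4 were tested and 0 passed, with a median of 0.32.

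The authors' deposited table held all 39 segments, 11 of them lower and 0 higher where the tools' mean false discovery rate was under 0.05. The edgeR fit above called 10 of those 11, from the same counts.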

How the data were processed

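Raw counts for each gene and library were deposited by the authors. Per the submitters' processing notes, the tools were featureCounts 2.0.1, edgeR 3.28 and DESeq2 1.26.0, with GRCm38 and mm10 as builds. Aligner, annotation and strandedness are not given in the sources consulted. Complementary DNA was made with a SMART-Seq v4 kit, per the labels' protocols. The authors' deposited table gives log2 fold changes, p-values and false discovery rates, each with a mean over tools; the group mean counts, a signal in the deposited tables, were not used.

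Genes were kept by filterByExpr, scaled by TMM (trimmed mean of M values) and fitted over the whole table in R 4.3.3. Genotype was the single term, and edgeR 4.0.16 gave quasi-likelihood F tests with Benjamini-Hochberg adjustment. Usage was tested in the same way with summed V counts as library sizes. Alternatives were DESeq2 1.42.0 and other scalings, filters and library sets. Members and lists were chosen with earlier results of these data known, so shares and sums get no p. Values in full are given for V segments of at least 5% usage, segments past the threshold and the top J segment, and for up to 3 list genes of smallest p; other genes were chosen after their values were seen. Promoters, recombination signals and other sequences of the locus were not used here.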

Additional observations from a re-analysis of the deposited data

Results flagged for a closer look

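Each group's values (96 sets) were searched for 1 library that stood far from the others. It was found in 8 sets, where chance gives about 1 in 20, or 4.8. Among V shares, Trbv13-3 took 9.17% of V counts in control replicate 1, where the next control library had 6.19%. Trbv18, a V pseudogene, took 2.67% in control replicate 2, against 0.502% in the next. Trbv24 took 1.13% in control replicate 6, against 0.640% in the next.

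Among J shares, Trbj1-5 took 14.4% of J counts in deleted replicate 2, against 6.35% in the next deleted library. It also took 12.5% in control replicate 3, against 5.92% in the next control library. Trbj1-7 stood out in control replicate 3 as well, at 5.98% against 4.04%. Trbj2-3 took 10.55% in control replicate 1, against 5.98%. In deleted replicate 1, Trbc1 took 46.0% of the counts of both constant genes, against 33.3% in the next deleted library.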

How the results depend on the processing

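The 11 segments lower in deleted libraries, where 2050 of 24068 genes were lower, became 6 with the replicate number as a block (736 of 23817 genes). They became 4 with scaling by genes of at least 50 mean CPM (691 of 24068 genes). The count was 0 after adding receptor share to the model (56 of 24068) or with Trbc2 as the scale (73 of 24068). It was also 0 in libraries of similar receptor share (101 of 24157), a setting added after seeing the data. With each library left out in turn the count was 6 to 18, where 1034 to 3245 genes were lower. On the Trbc2 scale 3 named segments turned above 0: Trbv12-2 (0.0691), Trbv3 (0.33) and Trbv31 (0.87). Trbv3 was also above 0 with receptor share in the model (0.27). Trbv31 was so in that fit (0.56), in libraries of similar receptor share (0.11), with scaling by genes of at least 50 mean CPM (0.18) and without control replicate 5 (0.07). Trbv3 and Trbv31 were not called before or after. DESeq2, DESeq2 size factors, upper quartile scaling and both filters kept the count within 1.5 times. For V usage the count of 0 became 1 with DESeq2, where 8694 of 24068 genes were higher. With each library left out it was 0 to 1, where 494 to 14869 genes were higher. With the replicate block it was 0. The cause of these changes was not tested. V and J per Trbc2, the effective number of V segments and the share of the first J cluster moved by less than their spread in each alternative run. The count of 0 segments without overlap has no such spread and depended on single libraries. For Trbv13-2, 6 control libraries, all but control replicate 2, lay above every deleted library in CPM. No sign of pairing by replicate number was seen: deviations of same-numbered libraries had correlations of -0.24 to 0.23, and 0 of 6 correlated best with its own number. This cannot show that same-numbered libraries were collected or processed apart. V totals of 998 to 1846 in deleted libraries limit what usage can show.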
